A study of Mus musculus with 6 samples.

Results

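The Toll-like receptor (TLR) genes of the mouse liver are described here after ischemia and reperfusion with and without ginsenoside Rk2, a saponin derived from ginseng. The 10 receptors are Tlr1 to Tlr9 and Tlr13, chosen by gene name, and all 10 are among the 15454 rows of the deposited count table and the 21948 rows of the deposited FPKM table. The rule used no measured value, but it was set with earlier results of these data known, and the study itself displayed Tlr1, Tlr2, Tlr4 and Tlr9 for these same livers, so the direction of those genes is not independent evidence.

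Liver RNA came from male C57BL/6 mice of 8 to 10 weeks, with no genetic change named in the labels. All 6 livers had undergone warm ischemia of 75% of the organ followed by reperfusion. Whether the sampled tissue came from a clamped or an unclamped lobe is not known here. The 3 I/R mice had received vehicle, and the 3 I/R+Rk2 mice had received Rk2, in both cases 2 days ahead of the operation and again as blood flow returned. No sham-operated liver was analysed here, so the level before injury is unknown, and unsorted tissue mixes the cells of the liver with those that entered it. Library totals ran from 16809613 to 35618074 counts, and 3 counts stood for 0.0888 to 0.184 counts per 1000000 (CPM, scaled by TMM, the trimmed mean of M values). The 10 hepatocyte markers summed to 69029 to 81058 CPM in I/R and 102765 to 127460 CPM in I/R+Rk2, so the labelled tissue matched its markers in every library.

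TLRs are membrane proteins that recognise microbial molecules and molecules released by damaged cells. Tlr1, Tlr2, Tlr4, Tlr5 and Tlr6 act mainly at the cell surface on lipids, lipopeptides and flagellin, and Tlr3, Tlr7, Tlr8, Tlr9 and Tlr13 act in endosomes on nucleic acids. Ligand-bound receptors recruit TIR-domain adaptors. MyD88 serves every receptor here other than Tlr3 and leads to NF-kB and inflammatory cytokine genes, while TRIF serves Tlr3 and Tlr4 and also leads to interferon genes. In liver, TLRs are found on Kupffer cells, infiltrating myeloid cells, endothelium and hepatocytes, and Tlr4 is known for its part in injury by reperfusion.

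The promoters of 4 receptors are shown because they belong to the most abundant receptors that fell (Tlr2, Tlr13), the receptor whose counts rose (Tlr3) and the receptor that was not called (Tlr5). Each runs from 250 bases before to 50 after the RefSeq start on GRCm38.p6, 5′ to 3′ on the strand of the gene, and capitals mark matches to the motifs searched. Tlr2 is chr3:83841559-83841858 on the minus strand, Tlr13 is chrX:106143025-106143324 on the plus strand, Tlr3 is chr8:45410331-45410630 on the minus strand and Tlr5 is chr1:182954538-182954837 on the plus strand.
Tlr2: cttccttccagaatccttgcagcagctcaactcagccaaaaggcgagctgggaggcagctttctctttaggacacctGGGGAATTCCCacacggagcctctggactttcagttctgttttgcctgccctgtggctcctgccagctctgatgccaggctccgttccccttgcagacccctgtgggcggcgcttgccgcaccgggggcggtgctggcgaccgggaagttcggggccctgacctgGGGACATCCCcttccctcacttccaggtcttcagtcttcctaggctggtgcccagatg
Tlr13: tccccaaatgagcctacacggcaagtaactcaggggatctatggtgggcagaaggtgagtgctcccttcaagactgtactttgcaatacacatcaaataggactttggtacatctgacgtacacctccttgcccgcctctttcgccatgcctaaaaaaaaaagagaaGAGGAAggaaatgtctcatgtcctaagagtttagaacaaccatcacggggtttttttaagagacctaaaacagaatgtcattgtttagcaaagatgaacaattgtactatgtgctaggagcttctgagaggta
Tlr3: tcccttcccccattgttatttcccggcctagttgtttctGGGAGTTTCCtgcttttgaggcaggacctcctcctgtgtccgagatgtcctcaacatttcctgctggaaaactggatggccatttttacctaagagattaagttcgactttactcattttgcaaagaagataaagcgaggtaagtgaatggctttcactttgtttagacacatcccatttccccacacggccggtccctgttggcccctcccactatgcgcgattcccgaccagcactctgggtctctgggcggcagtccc
Tlr5: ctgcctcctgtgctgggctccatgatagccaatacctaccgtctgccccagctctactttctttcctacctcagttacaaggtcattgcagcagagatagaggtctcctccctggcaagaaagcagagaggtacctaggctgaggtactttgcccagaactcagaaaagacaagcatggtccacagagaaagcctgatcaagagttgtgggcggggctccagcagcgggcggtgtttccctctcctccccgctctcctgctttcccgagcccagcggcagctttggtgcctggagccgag

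Motifs were searched on both strands in the RefSeq promoters of 8 of the 10 receptors (10 entries, none for Tlr4 and Tlr7). The NF-kB consensus was found in Tlr2, as an overlapping pair of matches that begin 173 and 172 bases before the start and a further match 8 bases before it, and in Tlr3, 211 bases before the start. That made 2 of 8 receptors, or 2 of 10 entries. The background is counted per entry, and 8.46% of the 32851 promoter entries of the same length held a match. The core of PU.1, the myeloid ETS factor (GAGGAA), was found in Tlr1 (1 of its entries), Tlr8, Tlr9 and Tlr13. That made 4 of 8 receptors, or 4 of 10 entries, against 28.3% of promoter entries. In Tlr13 it lies 83 bases before the start and in Tlr8 77 bases before it. The AP-1 letters TGANTCA were found in Tlr9 alone (7.81% of promoters), and the interferon-response element (ISRE, searched as GAAA, any 2 bases and GAAA) in 1 entry of Tlr6 alone (3.44% of promoters). Tlr5 held none of the 4. A match describes the letters and is no evidence of binding.

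The comparison of I/R+Rk2 with I/R asked whether treatment went with lower inflammatory gene expression in the injured liver, and for the receptors it showed a fall of most of the family. Of the 10, 8 were lower in I/R+Rk2 (Tlr1, Tlr2, Tlr4, Tlr6, Tlr7, Tlr8, Tlr9 and Tlr13), Tlr3 was higher and Tlr5 was not called. "Fell" and "rose" are used of genes with an adjusted p below 0.05 in the quasi-likelihood F test of edgeR across all 12411 genes tested, and "past the threshold" of those that also changed by more than 2-fold, the limits that the study set. All 10 receptors passed the filter on low counts. Tlr1 (9, 8 and 0 counts in the treated livers) and Tlr9 (4, 3 and 0) passed it through the I/R livers alone. For them only a fall could be called, so their direction adds no support to the counts and the median given here. The same limit holds for Ticam2, Nos2, Cd209a and Cftr, named below. Of all genes tested, 23.7% fell and 20.3% rose (43.9% in either direction), and 11.4% were lower and 3.17% higher past the threshold (14.6% in either direction). All 8 receptors that fell were past the threshold, and in each of them every I/R liver lay above every I/R+Rk2 liver, a separation that 30.3% of all genes showed in that direction and 27.1% in the other. The median log2 fold change of the 10 receptors was -2.26, against -0.01 over all genes tested.

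**Figure D1:**
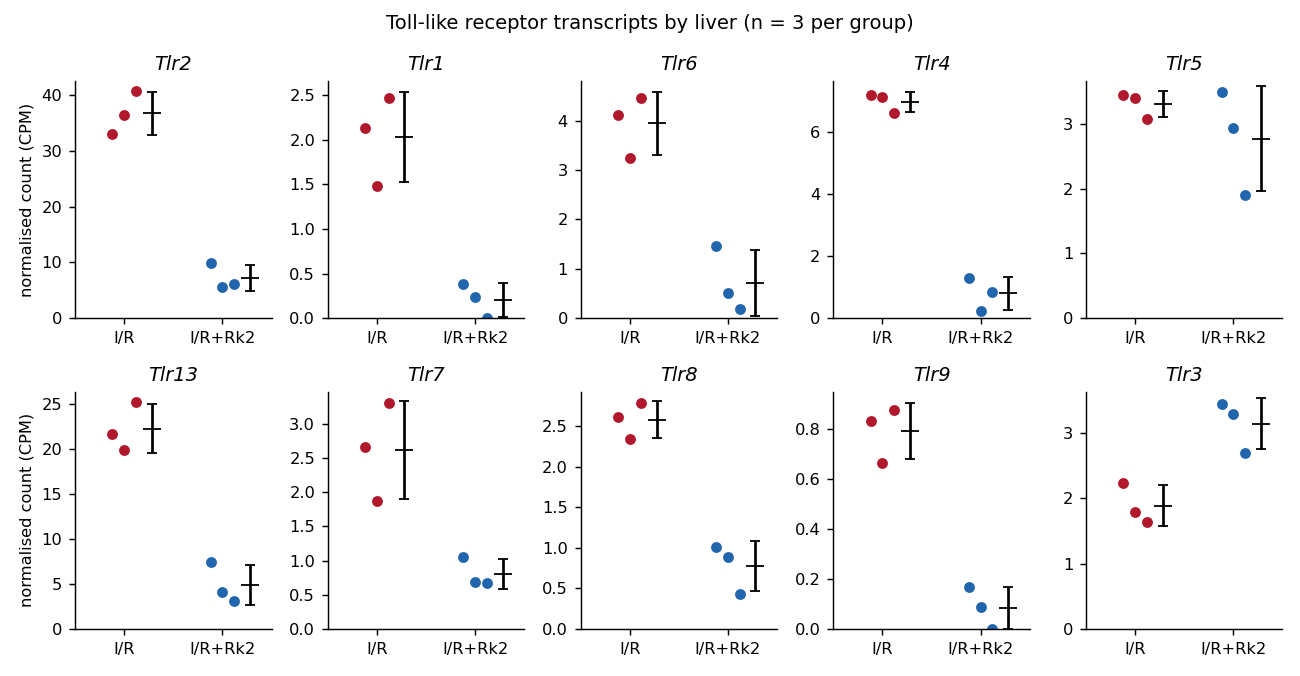
Normalised counts (CPM, vertical axis) of the 10 receptors, 1 point per liver, red for I/R and blue for I/R+Rk2 (replicates 1 to 3 from left to right), with the mean and SD beside them; each panel has its own scale from 0. In 8 panels all red points lie above all blue points, in Tlr5 they overlap and in Tlr3 the blue points are higher.

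Tlr2, which pairs with Tlr1 or Tlr6 to bind bacterial lipopeptides, gave 32.9, 36.4 and 40.7 CPM in I/R replicates 1 to 3 and 9.92, 5.65 and 6.14 CPM in I/R+Rk2 replicates 1 to 3. The lowest I/R liver stood far above the highest I/R+Rk2 liver. The mean went from 36.7 ± 3.90 to 7.24 ± 2.33 CPM (SD, n = 3), a 5.07-fold fall (log2 fold change -2.34, SE 0.22, edgeR adjusted p = 0.00057). These values rested on 632 to 1022 counts per I/R liver and 100 to 236 per I/R+Rk2 liver, the most of any receptor. The gene lies at chr3:83836272-83841767 on mm10 (GENCODE M21) with 1 annotated transcript.

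Tlr1, the partner of Tlr2 for triacylated lipopeptides, gave 2.14, 1.48 and 2.47 CPM in I/R and 0.378, 0.237 and 0 CPM in I/R+Rk2. It fell by 3.15 on the log2 scale (SE 0.61, adjusted p = 0.00640), with 9, 8 and 0 counts behind the treated livers. Tlr6, the partner for diacylated lipopeptides, gave 4.12, 3.24 and 4.47 CPM in I/R and 1.47, 0.503 and 0.184 CPM in I/R+Rk2. It fell by 2.41 (SE 0.55, adjusted p = 0.0121), and its treated livers spread over a wide range. Both receptors were therefore clear of the treated livers in all 3 I/R livers, on few reads in the treated ones.

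Tlr1 (chr5:64924679-64933563) and Tlr6 (chr5:64952031-64960097) are neighbours on the minus strand, 18467 bases apart, and are near copies in part. Of the 50-base stretches of their annotated exons, 15.4% for Tlr1 and 12.3% for Tlr6 also occur in other genes, and 454 are common to the pair, so reads could be divided between them by the counting. With their counts summed into 1 gene, the fall was 2.64 on the log2 scale (SE 0.56, adjusted p = 0.00912).

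Tlr4, the receptor for lipopolysaccharide and for several ligands from damaged tissue, gave 7.19, 7.14 and 6.62 CPM in I/R, the smallest spread for its mean of any receptor that fell. The I/R+Rk2 livers gave 1.30, 0.237 and 0.860 CPM. The mean went from 6.98 ± 0.319 to 0.800 ± 0.536 CPM, a 9.08-fold fall (log2 fold change -3.18, SE 0.48, adjusted p = 0.00261), which rested on 31, 8 and 14 counts in the treated livers. Without I/R+Rk2 replicate 1, the fold change was -3.87. The gene spans chr4:66827584-66930284 on the plus strand.

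Tlr5, the flagellin receptor (chr1:182954788-182976044, plus strand), gave 3.44, 3.40 and 3.07 CPM in I/R and 3.49, 2.93 and 1.90 CPM in I/R+Rk2. The groups overlapped, since the highest value of all 6 livers was a treated one. The log2 fold change was -0.24 (SE 0.25, adjusted p = 0.466), with a 95% interval of -0.82 to 0.34, so a fall of the size seen in the other surface receptors lies outside its interval.

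Among the endosomal receptors, Tlr13, which recognises bacterial ribosomal RNA, was the most abundant, with 21.6, 19.9 and 25.2 CPM in I/R and 7.40, 4.12 and 3.13 CPM in I/R+Rk2. The groups were well apart. The mean went from 22.2 ± 2.71 to 4.88 ± 2.23 CPM, a 4.52-fold fall (log2 fold change -2.18, SE 0.30, adjusted p = 0.00179). It lies at chrX:106143204-106160493 on the plus strand.

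Tlr7 and Tlr8, the sensors of single-stranded RNA, are neighbours on the minus strand of the X chromosome (Tlr7 at chrX:167304929-167330558, Tlr8 at chrX:167242696-167264329, with 40599 bases between them). Tlr7 gave 2.66, 1.87 and 3.31 CPM in I/R and 1.05, 0.681 and 0.675 CPM in I/R+Rk2. Tlr8 gave 2.61, 2.34 and 2.79 CPM in I/R and 1.01, 0.888 and 0.430 CPM in I/R+Rk2. Both fell by 1.69 on the log2 scale, with an SE of 0.32 each (adjusted p = 0.00593 for Tlr7 and 0.00578 for Tlr8), the smallest change among the 8 that fell. No 50-base stretch of their exons was shared with another gene.

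Tlr9, the sensor of unmethylated CpG DNA (chr9:106222598-106226883, plus strand), was the receptor with the fewest reads, 16, 17 and 22 counts in I/R and 4, 3 and 0 in I/R+Rk2. In CPM these were 0.834, 0.663 and 0.877 against 0.168, 0.0888 and 0. The treated livers were thus at or near the level of 3 counts. The fall was 3.01 on the log2 scale (SE 0.59, adjusted p = 0.00676), with a 95% interval of -4.41 to -1.61 that shows how loosely the size is known. Without I/R+Rk2 replicate 1, the fold changes of Tlr9 and Tlr6 were -3.67 and -3.37.

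Tlr3, the sensor of double-stranded RNA and the receptor that signals through TRIF rather than MyD88, differed from the rest in direction. It gave 2.24, 1.80 and 1.63 CPM in I/R and 3.45, 3.29 and 2.70 CPM in I/R+Rk2. Every treated liver was above every I/R liver, and the mean went from 1.89 ± 0.315 to 3.14 ± 0.392 CPM, 1.68-fold higher (log2 fold change 0.74, SE 0.22, 95% interval 0.23 to 1.25, adjusted p = 0.0289). It was not past the threshold, and the call was lost without I/R replicate 2 (0.71, adjusted p = 0.0782), I/R replicate 3 (0.65, 0.0962), I/R+Rk2 replicate 1 (0.67, 0.0683) or I/R+Rk2 replicate 2 (0.71, 0.0858), and with scaling by library size alone (0.58, 0.114).

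The rise of Tlr3 passed the test in counts and did not pass it in FPKM. In FPKM (fragments per kilobase of transcript and per 1000000 mapped), Tlr3 stood at 1.02, 0.769 and 0.565 in I/R and 0.835, 0.771 and 0.896 in I/R+Rk2, with overlapping groups (limma on log2(FPKM + 0.1), log2 fold change 0.11, adjusted p = 0.784). The transcript length implied by setting a liver's count against its FPKM was 2386 to 2926 bases in the I/R livers, and 4025, 4042 and 2756 bases in I/R+Rk2 replicates 1 to 3. The files thus assign reads of Tlr3 to transcripts of different mean length in different livers, and the annotation lists 9 Tlr3 transcripts. The exons of Tlr3 (chr8:45395665-45411080, minus strand) also overlap Gm45542 on the opposite strand, with 5.3% of its 50-base stretches shared, and the strand setting of the counting is not given in the sources used here, so reads of the pair cannot be told apart. The part of transcript choice and of Gm45542 in the rise was not tested.

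The same check gave nearly constant lengths for Tlr2, Tlr7, Tlr9 and Tlr13 (highest over lowest liver 1.01 to 1.02). For Tlr4 the implied length was 1106 bases in I/R+Rk2 replicate 2, against 4336 and 4356 bases in the other treated livers, which goes with its low count of 8. In FPKM that liver was not low, at 0.203 beside 0.292 and 0.181, and the fall of Tlr4 held there too (log2(FPKM + 0.1) change -2.60, limma adjusted p = 0.00112). In I/R replicate 3 the implied length was shorter for Tlr4 (3282 bases, where I/R replicates 1 and 2 gave 4379 and 4353), for Tlr6 (2895 bases against 3899 to 4005 in the other 5 livers) and for Tlr8 (2072 bases against 3697 to 3722), and for Tlr5 it ran from 2981 to 3810 bases over the 6 livers. Counts and FPKM of these receptors therefore do not keep 1 relation over the livers, and the reason was not tested.

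**Figure D2:**
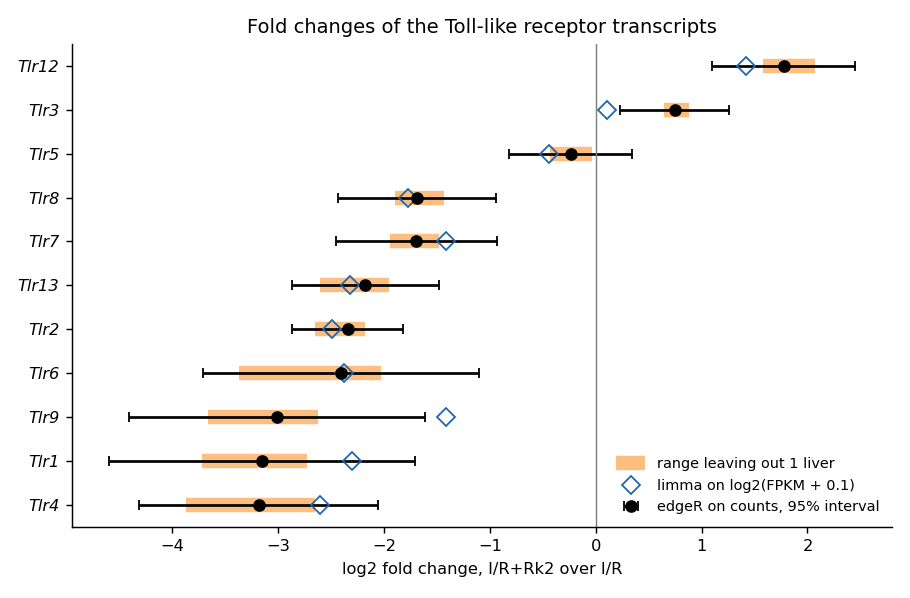
Log2 fold change of I/R+Rk2 over I/R (horizontal axis) for the 10 receptors and Tlr12: black points with 95% intervals from edgeR on counts, orange bars for the range when any 1 liver is left out, and blue diamonds for limma on log2(FPKM + 0.1). The intervals of 8 receptors lie below 0, that of Tlr5 spans 0, and for Tlr3 the diamond lies near 0 while the counts give 0.74.

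In levels per length, which allow receptors to be compared with each other, Tlr2 led in I/R with 12.0 ± 0.708 FPKM, followed by Tlr13 (5.42 ± 0.646) and Tlr4 (1.86 ± 0.182). These 3 did not overlap with their neighbours in the order. Then came Tlr6 (1.20), Tlr5 (1.01), Tlr8 (0.938), Tlr3 (0.784), Tlr7 (0.662) and Tlr1 (0.662), each of which overlapped the next over the 3 livers, and Tlr9 came last, apart from Tlr1, at 0.224 ± 0.0371 FPKM. In I/R+Rk2 the order was Tlr2 (2.14 ± 0.757), Tlr13 (1.07 ± 0.526), Tlr3 (0.834), Tlr5 (0.744), Tlr4 (0.225), Tlr8 (0.199), Tlr7 (0.183), Tlr6 (0.174), Tlr1 (0.0586) and Tlr9 (0.0223). Here the step from Tlr5 to Tlr4 was the only one between neighbours whose livers did not overlap.

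The summed FPKM of the 10 receptors went from 24.8 ± 2.45 in I/R to 5.65 ± 1.86 in I/R+Rk2. Tlr2 made up 48.7% ± 2.99 of the sum in I/R and 37.8% ± 3.97 in I/R+Rk2, and Tlr4 7.52% ± 0.0256 and 4.04% ± 0.263. Tlr3 went from 3.20% ± 1.01 to 15.8% ± 5.21 and Tlr5 from 4.07% ± 0.208 to 13.3% ± 3.28, in both cases without overlap. Shares sum to a whole, and in level neither Tlr3 nor Tlr5 was apart between the groups (0.784 and 0.834 FPKM for Tlr3, 1.01 and 0.744 FPKM for Tlr5), so their larger shares go with the lower levels of the others. Tlr13 held 21.8% and 18.3%, and its livers overlapped.

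**Figure D3:**
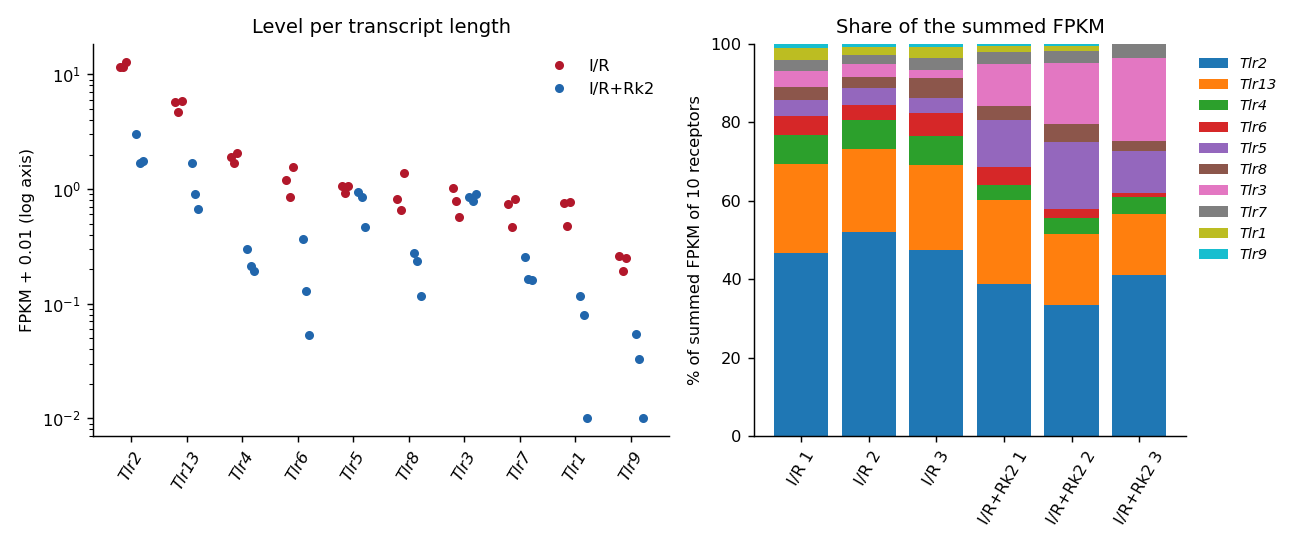
Left, FPKM of the 10 receptors plus 0.01 on a log axis, 1 point per liver, in order of the I/R mean. Right, the share of each receptor in the summed FPKM of the 10, 1 bar per liver; Tlr2 and Tlr13 fill most of each I/R bar, and Tlr3 and Tlr5 take a larger share in the I/R+Rk2 bars.

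The livers ranked alike across the receptors that fell. Among the treated livers, I/R+Rk2 replicate 1 had the highest CPM of all 8, and replicate 3 the lowest of 6 of the 8. Among the I/R livers, replicate 2 had the lowest of 6 of the 8. The genes whose pattern over the 6 livers was most like the mean of the receptors were Themis2 (Pearson r = 0.9996), Mrgpra2b (0.9996), Csf3r (0.9994), the receptor for the neutrophil growth factor G-CSF, S100a9 (0.9993), a neutrophil protein that binds Tlr4, and Slfn1 (0.9989). These correlations are on log2(CPM + 1) over 6 livers that share the group difference, and are given as a description.

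Markers of infiltrating cells moved with the receptors. All 8 pan-leukocyte markers fell (median log2 fold change -1.96), from a summed 278 to 355 CPM in I/R to 89.5 to 155 CPM in I/R+Rk2, and 9 of 10 neutrophil markers fell (median -2.03), from 555 to 675 CPM to 105 to 247 CPM. All 9 monocyte markers fell too (median -4.33), from 216 to 238 CPM to 12.5 to 21.2 CPM. Of 11 markers of Kupffer cells, the resident macrophages, 1 fell (Cd5l, list median -0.43), and the sums overlapped, at 257 to 316 CPM against 219 to 313 CPM. C6, a complement gene that hepatocytes also express, made up 54.5% to 70.3% of each sum, and 10 of the 11 markers were negative in sign. Without C6 the sums were 92.1 to 144 CPM in I/R and 75.8 to 92.7 CPM in I/R+Rk2. These overlapped only in I/R replicate 2 (92.1) and I/R+Rk2 replicate 1 (92.7), and the means were 118 and 82.7 CPM. I/R+Rk2 replicate 1, highest for the 8 receptors among treated livers, also had the highest sum of all 4 of these lists. In unsorted liver tissue, fewer cells of a type and less receptor RNA per cell cannot be told apart. The part of these cells in the fall of the receptors was not tested.

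The markers of other cell types differed by list. Some lists were near the floor, and endothelial and hepatocyte markers were called in both directions. Stellate, cholangiocyte and conventional dendritic cell markers were lower wherever they were called. The 6 B cell markers, which mark cells rich in Tlr9, summed to 0.417 to 1.32 CPM in I/R and 0.983 to 1.60 CPM in I/R+Rk2, with none passing the filter. Pax5, of B cells, and Nkg7, of T and NK cells, had 0 counts in all 3 I/R livers, and Klk1, of plasmacytoid dendritic cells, in all 3 treated livers. Of the plasmacytoid dendritic cell markers, 2 of 6 could be tested and 1 rose (Bst2, which interferon also induces). For conventional dendritic cells 3 could be tested, of which 2 fell (Cd209a and Itgax, list median -2.11), and for T and NK cells 1 could be tested and was not called. Of 8 sinusoidal endothelial markers 3 fell (Lyve1, Pecam1 and Cdh5) and 3 rose (Clec4g, Kdr and Oit3). Of the stellate cell markers 3 of 7 fell (Pdgfrb, Ecm1 and Rgs5), and of the cholangiocyte markers 3 of 6 (Epcam, Spp1 and Cftr), and none of either list rose. The stellate markers summed to 124 to 148 CPM in I/R and 84.9 to 87.3 CPM in I/R+Rk2. The cholangiocyte sums were 165 to 231 CPM in I/R and 84.0 to 117 CPM in I/R+Rk2. Of 10 hepatocyte markers 5 rose (Alb, Ttr, Serpina1a, Ass1 and Cps1) and 1 fell (Hnf4a).

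Set against these markers, the receptors differed, but each ratio also moves with its marker sum. A receptor that fell by less than the summed markers comes out higher on such a scale. The share of all genes that separate on these scales was not computed. Per 1000 CPM of pan-leukocyte markers, Tlr2 stood at 94.9, 131 and 115 in I/R and 63.9, 55.2 and 68.6 in I/R+Rk2. All I/R livers were still above all treated livers for it and for Tlr1, Tlr4, Tlr6, Tlr9 and Tlr13, with ratios of means (I/R+Rk2 over I/R) from 0.258 for Tlr1 to 0.600 for Tlr13. Lcp1, the most abundant of these markers, fell least (-0.96) and weighs most in the sum (114 to 151 CPM in I/R, 48.9 to 91.3 CPM in I/R+Rk2). The separations were not computed without Lcp1, so they hold for this list only. Tlr7 and Tlr8 overlapped between the groups on this scale (ratios 0.884 and 0.840). Tlr3 and Tlr5 were higher in every treated liver on this scale (4.82 and 2.35), though Tlr5 itself overlapped in CPM.

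Per neutrophil marker, the I/R livers stayed above for Tlr1, Tlr4, Tlr9 and Tlr13, and Tlr2, Tlr6, Tlr7 and Tlr8 overlapped. Per monocyte marker the order turned: Tlr2, Tlr7, Tlr8 and Tlr13 were higher in every treated liver (ratios 2.78, 4.37, 4.37 and 3.05), and Tlr1, Tlr4, Tlr6 and Tlr9 overlapped. The receptors that fell did so by 1.69 to 3.18 on the log2 scale, less than the monocyte list (median -4.33). The turn therefore follows from the larger fall of the monocyte markers. Per Kupffer cell marker all 8 were lower, with ratios from 0.105 for Tlr1 to 0.341 for Tlr7, or 0.140 to 0.437 with C6 left out of the list. Tlr4 was thus lower relative to 3 of the 4 marker lists and overlapped relative to the monocyte list. These ratios are descriptions of RNA from unsorted tissue, without a test.

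**Figure D4:**
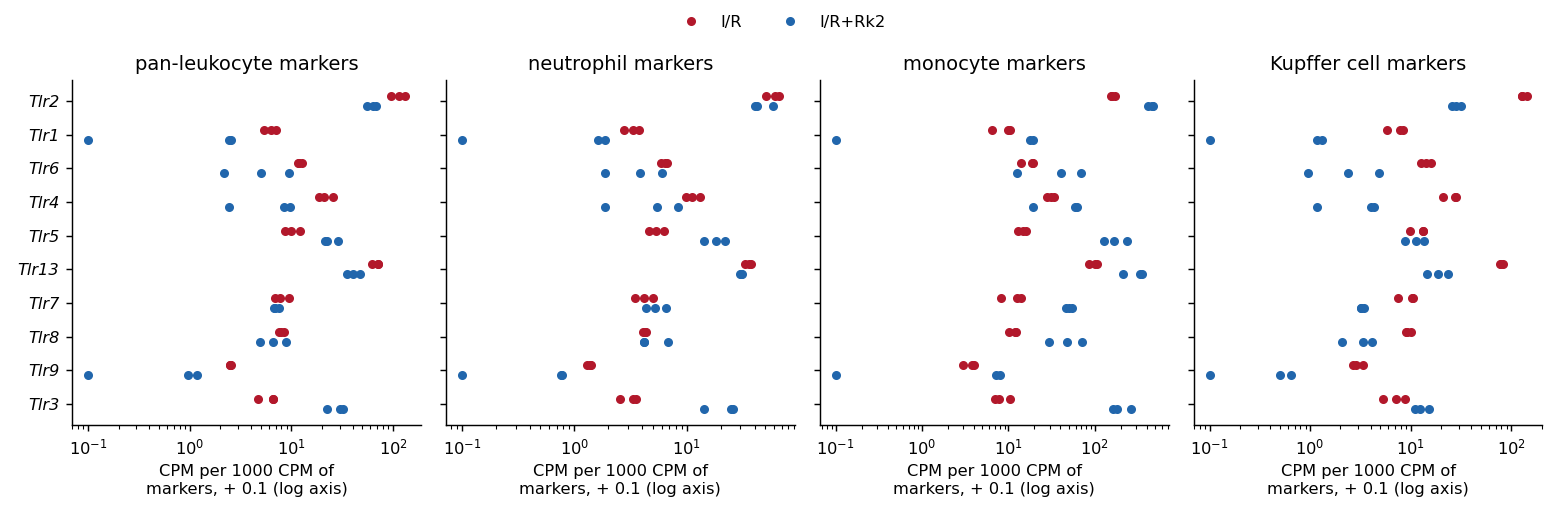
Each receptor's CPM per 1000 CPM of the summed markers named above the panel, plus 0.1, on a log axis, 1 point per liver (red I/R, blue I/R+Rk2); points at 0.1 are livers with 0 counts. Blue lies left of red for 8 receptors against Kupffer cell markers, and right of red for 4 of those 8 against monocyte markers.

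Of the remaining mouse receptors, Tlr12, an endosomal receptor for the profilin of protozoan parasites (chr4:128615443-128618619), rose. It gave 0.678, 1.40 and 0.997 CPM in I/R and 3.28, 3.46 and 3.99 CPM in I/R+Rk2, with every treated liver higher (log2 fold change 1.78, SE 0.29, adjusted p = 0.00326). Tlr11, which binds the same ligand, had 0 to 3 counts per liver in both groups, at or under the floor, and was not tested.

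The genes that TLRs work with were taken from 11 lists of 109 names, of which 106 were in the count table and 100 could be tested. Of these, 45 fell and 8 rose, and 29 were lower and 2 higher past the threshold, with a median log2 fold change of -0.36. Against the 11.4% of all genes that were lower past the threshold, the lists differed widely.

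**Figure D5:**
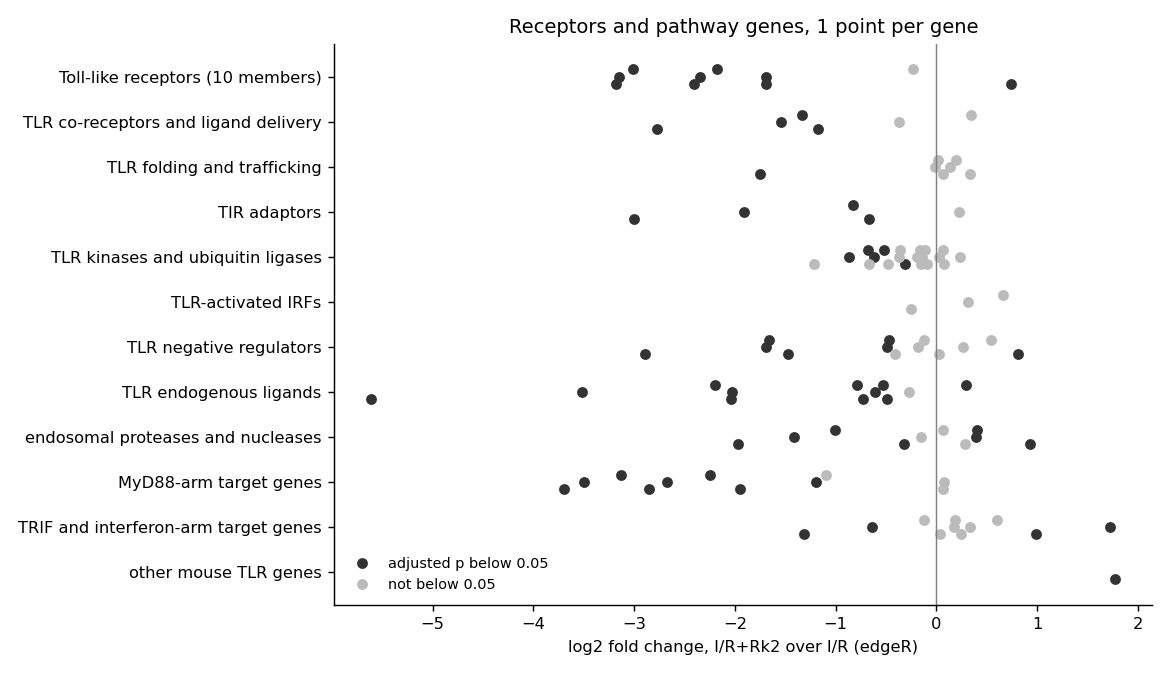
Log2 fold change of I/R+Rk2 over I/R (horizontal axis, edgeR) for the tested genes of the receptors and of the 11 pathway lists, 1 point per gene, black with an adjusted p below 0.05 and grey otherwise. Nos2, with 0 counts in every treated liver, is left out. Co-receptors, adaptors, kinases, endogenous ligands and MyD88-arm targets lie mostly left of 0, the kinases near it, and trafficking genes, IRFs and interferon-arm targets lie on both sides.

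Of 6 co-receptors and ligand carriers tested, 4 fell, all past the threshold (median -1.26). Cd14, which hands lipopolysaccharide to Tlr4, gave 112, 154 and 131 CPM in I/R and 26.4, 14.2 and 17.7 CPM in I/R+Rk2 (log2 fold change -2.77, SE 0.24, adjusted p = 0.000458). Ly96, which encodes MD-2, the lipid-binding partner of Tlr4, fell by 1.54 (adjusted p = 0.00127), and Ly86, the partner of the TLR homologue Cd180, by 1.18 (0.00896), as did Cd180 itself (-1.34, 0.0289). Lbp, the plasma carrier of lipopolysaccharide that hepatocytes secrete, gave means of 87.1 and 67.4 CPM with overlapping livers and was not called (-0.37, adjusted p = 0.0761). It was called lower in 4 of 17 alternative settings, among them without I/R+Rk2 replicate 3 (-0.50, 0.0295). In FPKM its lowest I/R liver (30.3) was above its highest I/R+Rk2 liver (29.3).

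Of 7 folding and trafficking genes, 1 fell and none rose (median 0.06). Unc93b1, the chaperone that carries the endosomal receptors out of the endoplasmic reticulum, gave 18.5, 22.1 and 22.2 CPM in I/R and 22.7, 22.0 and 24.3 CPM in I/R+Rk2, overlapping and not called (0.13, adjusted p = 0.357, or -0.024 with scaling by library size alone). Cnpy3, a folding factor for several TLRs (0.20), and Slc15a4, an endolysosomal transporter needed for Tlr7 and Tlr9 signals (0.33), were not called either, but passed without I/R replicate 2 (Cnpy3, 0.33, adjusted p = 0.0496) or I/R+Rk2 replicate 1 (Slc15a4, 0.59, 0.00922). The gene that fell was Nrros, a leucine-rich repeat protein of myeloid cells (-1.75, adjusted p = 0.00332).

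Of 5 TIR adaptors tested, 4 fell (median -0.83), 2 of them past the threshold. Myd88 gave 33.6 to 37.4 CPM in I/R and 18.5 to 22.0 CPM in I/R+Rk2 (-0.83, SE 0.10, adjusted p = 0.00120). Tirap, which bridges MyD88 to Tlr2 and Tlr4, fell by 0.67 (adjusted p = 0.0184, or 0.0714 without I/R replicate 1), and Pik3ap1, an adaptor that links TLRs to PI3K, by 1.91 (0.000240), from 127 to 33.7 CPM. Ticam2, the bridge from Tlr4 to TRIF, fell from 0.721 to 0.103 CPM (adjusted p = 0.0152), under 1 CPM in every liver, and lost its call without I/R replicate 1 (0.0525) or 3 (0.0508). Its log2 fold change was -2.21 without I/R+Rk2 replicate 2 and -3.62 without replicate 3. Ticam1, which encodes TRIF, gave 13.5 and 15.7 CPM and was not called (0.22, adjusted p = 0.147).

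Of 20 kinases and ubiquitin ligases, 5 fell, none of them past the threshold, and none rose (median -0.26), a count near the 23.7% of all genes that fell. Tbk1 and Ikbke, the kinases that activate IRF3, fell by 0.68 and 0.87 (adjusted p = 0.00198 and 0.000772). Irak4, the first kinase of the MyD88 complex, fell by 0.52 (0.0104), and Traf6, its ubiquitin ligase, by 0.31 (0.0225), a call that 9 of 17 alternative settings did not keep, 5 of which left out 1 liver (every liver other than I/R+Rk2 replicate 1, adjusted p 0.0576 to 0.0756). The fifth was Tank (-0.62), a scaffold of Tbk1 and Ikbke. Irak1 (-0.15, adjusted p = 0.567) and Irak2 (-0.48, adjusted p = 0.195) overlapped between the groups in counts, whereas limma on log2(FPKM + 0.1) called both lower (-0.50, adjusted p = 0.0486, and -0.95, 0.00766), and Irak2 also passed without I/R replicate 2 (-0.72, 0.0419). The interferon regulatory factors Irf3 (0.31), Irf5 (-0.25) and Irf7 (0.66) were not called. Irf3 passed without I/R replicate 1 (0.41, adjusted p = 0.0455), and without I/R+Rk2 replicate 1 so did Irf5 (-0.87, 0.00533) and Irf7 (0.83, 0.0372). Irf3 also passed with relative log expression scaling (adjusted p = 0.0452) and upper-quartile scaling (0.0331), and Irf7 with DESeq2 (0.0351) and with a replicate block (0.0190).

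Of 13 negative regulators, 6 fell and 1 rose (median -0.41). Irak3, the inactive IRAK that brakes TLR signals in macrophages, gave 6.00, 8.23 and 11.0 CPM in I/R and 1.51, 1.10 and 0.737 CPM in I/R+Rk2 (-2.89, SE 0.32, adjusted p = 0.000920). Socs1, an inducible brake on cytokine signals, fell by 1.66 (0.00147) and Tnfaip3, the NF-kB-induced ubiquitin-editing enzyme A20, by 1.47 (0.00150), while Tollip fell by 0.47 (0.0122). The gene that rose was Sigirr, a TIR-domain receptor that dampens TLR signals, from 8.48 to 14.9 CPM (0.81, adjusted p = 0.00714), but in FPKM it was not called (log2(FPKM + 0.1) change 0.35, limma adjusted p = 0.396).

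Of 12 endogenous TLR ligands, 10 fell and 1 rose (median -0.76). Vcan, a matrix proteoglycan that binds Tlr2, gave 23.5, 26.0 and 30.7 CPM in I/R and 0.757, 0.296 and 0.675 CPM in I/R+Rk2 (-5.61, adjusted p = 0.000212). S100a9 fell by 2.04 (0.00146), and Tnc, a matrix protein that binds Tlr4, by 3.52 (0.00262), or by 4.67 without I/R+Rk2 replicate 1. The ligand that rose was Hmgb1, a nuclear protein released by dying cells (0.29, edgeR adjusted p = 0.0438). In FPKM its means were 12.2 in I/R and 12.1 in I/R+Rk2, with overlapping livers. Vcan and S100a9 are also in the monocyte and neutrophil marker lists.

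Of 10 endosomal proteases and nucleases, which trim the endosomal receptors or digest their ligands, 4 fell and 3 rose (median -0.04). The cysteine protease gene Ctss fell by 1.97 (adjusted p = 0.000240) and the legumain gene Lgmn by 1.41 (0.000259). Dnase1l3, a nuclease that digests DNA in shed vesicles, rose from 18.9 to 36.0 CPM (0.93, adjusted p = 0.00280). The others were Ctsl and Pld4, which fell, and the RNase genes Rnaset2a and Rnaset2b, near copies of each other, which rose.

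Of 12 tested MyD88-arm targets, 9 fell, all past the threshold (median -2.46), and none rose. Tnf (-1.09, edgeR adjusted p = 0.0813), Il1a (0.08, 0.693) and Nfkbiz (0.07, 0.629) were not called. The median was the same with Nos2, at 0 counts in every treated liver, set to the bound that 3 counts give. Lcn2, an iron-withholding protein of the acute phase, gave 799, 636 and 465 CPM in I/R and 62.3, 39.7 and 44.5 CPM in I/R+Rk2 (-3.70, adjusted p = 0.000240). Il1b, the inflammasome cytokine, fell by 3.13 (0.000568) and the neutrophil chemokine Cxcl2 by 2.68 (0.00111). Of 11 tested interferon-arm targets, 2 fell and 2 rose (median 0.19), near the 23.7% and 20.3% of all genes. Gbp2, an interferon-induced GTPase, fell by 1.31 (0.00110) and the chemokine Cxcl10 by 0.64 (0.0142), while Usp18, which removes ISG15 from proteins, rose by 0.98 (0.0184), as did Ifit2, an interferon-induced RNA-binding protein (1.72). The call of Cxcl10 was lost without I/R replicate 3 (-0.59, adjusted p = 0.0549) or I/R+Rk2 replicate 2 (-0.58, 0.0565), and that of Usp18 without I/R+Rk2 replicate 3 (0.82, 0.0518). The difference between the arms was not tested.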

How the data were processed

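Per the labels, RNA from each liver (250 ng) was made into libraries with an MGIEasy kit. Per the submitters' processing notes, reads were checked with FastQC 0.11.5, aligned to mm10 with HISAT2 2.2.1 and assembled with StringTie 1.3.3. The authors deposited whole-number counts per gene, which may be rounded estimates, and FPKM values. The annotation and strand setting are not given in the sources used here. All columns were matched to samples by name.

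EdgeR 4.0.16 under R 4.3.3 was applied to the counts: filterByExpr defaults, TMM, estimateDisp and the two-sided quasi-likelihood F test, I/R+Rk2 against I/R, without covariates, with Benjamini-Hochberg adjustment over 12411 genes. SEs are the absolute log2 fold change over the square root of F. The code was tested on simulated data. Intervals cover 95%, and floors of 3 counts cover counting error only. Libraries of 1 group differed by 31.4 to 74.8 chi-square per degree of freedom, so each was 1 replicate. Each library is 1 liver, and p-values set the group difference against the spread between livers, which is estimated partly from all genes together.

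Alternatives were other scalings and filters, DESeq2 1.42.0, limma 3.58.1 on log2(FPKM + 1) or log2(FPKM + 0.1) computed from the deposited FPKM, a replicate block and leaving out each liver. The log2(FPKM + 0.1) fit without a filter, the sum of Tlr1 and Tlr6 and the Kupffer cell sum without C6 were added after seeing the data. Fold changes on log2(FPKM + pseudocount) understate low genes.

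The members, lists and markers were chosen with earlier results of these data known. Named are all 10 receptors, up to 3 tested genes of smallest p per pathway list, Tlr11, Tlr12 and 15 fixed pathway genes, and the 5 genes most like the receptors' mean. Other list members named beside a small count, and Gm45542, were chosen after their values were seen. Lrrc33 is an older name of Nrros. Exon overlaps and shared 50-base stretches came from GENCODE M21 on GRCm38, and promoters from RefSeq on GRCm38.p6.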

Additional observations from a re-analysis of the deposited data

How the results depend on the processing

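Of 153 alternative values of single receptors, 146 kept the direction and the side of the adjusted p of 0.05, and the 7 that lost the call were all of Tlr3, whose adjusted p ran from 0.0217 to 0.784. Receptors past the threshold numbered 8, and 3 with at least 10 counts in every sample, 3 with limma on log2(FPKM + 1) without a filter, and 3 with a mean FPKM of at least 1 at either pseudocount, where fewer receptors were tested or the pseudocount shrank the folds. Receptors with an adjusted p below 0.05 numbered 9, and 4 with at least 10 counts in every sample and 3 with a mean FPKM of at least 1. Leaving out 1 liver gave 8 to 8 receptors past the threshold, 8 to 9 with an adjusted p below 0.05, and 29 to 33 pathway genes past the threshold (31 with all livers). Over all genes, 1813 were past the threshold, against 901 and 921 with log2(FPKM + 1) with and without the filter. With library size alone the median of all genes moved to -0.17 and the share of called genes that fell from 53.9% to 72.5%, and Unc93b1 reversed to -0.024, uncalled; the cause was not tested. Of 675 alternative values of the other named genes, 634 were unchanged in direction and call, 19 lost a call and 21 gained one. The replicate numbers did not pair the livers (correlations of deviations -0.03, 0.05 and -0.02), and a replicate block gave 8, 9 and 30 for the same 3 counts, without changing the call of a receptor; among the other named genes it took the call of Traf6 (adjusted p = 0.0536) and gave one to Irf7 (0.0190). Depth limits Tlr1 and Tlr9 most, each with a treated liver at 0 counts.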
